A study of Mus musculus with 7 samples.

Results

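The genes described here encode the machinery of oxidative phosphorylation, measured in livers of mice with and without the microRNA miR-122. They were found by gene symbol: Nduf followed by a, b, c, f, s or v, Sdha to Sdhd, any symbol that starts with Uqcr or Atp5, and Cox4 to Cox8 followed by a letter, each with a probe set that the platform annotation gives to a single gene. This took 90 of 18193 genes, through 179 of 34945 single-gene probe sets. The rule takes in proteins that are no subunits: the 8 Ndufaf genes are assembly factors. The genes fall into 6 core subunits, 28 accessory subunits and 8 assembly factors of complex I, 4 genes of complex II, 8 of complex III, 11 of complex IV, 8 isoforms or paralogs of complex IV subunits best known from other tissues, and 17 of ATP synthase.

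The study compared 3 wild-type livers (WT-27, WT-103, WT-104) with 4 miR-122 knockout livers (KO-03, KO-90, KO-91, KO-94), on 1 Affymetrix array each. All 7 mice were 2 months old and of B6/129 background, and the labels give no sex, litter, treatment or scan date. How the gene was deleted, and how the control animals are related to the knockouts, is not given in the sources used here. MiR-122 itself was not read here, so the genotype labels were not checked against it. Levels are log2 values from robust multi-array analysis (RMA), and a difference is the knockout mean minus the wild-type mean. Values of single arrays are listed in order of animal number. The summed unlogged level of 7 hepatocyte markers, among them Alb and Apoa1, was 120300 to 124100 in wild type and 124700 to 128200 in knockout, with 0 of 7 called. Those sums did not overlap, but without Tat, whose difference was 0.90, they were 113000 to 118800 and 115000 to 118600 and overlapped, and the median difference of the 7 markers was -0.01. The brightest of these markers had the highest mean of all genes, 14.6. Whether the arrays resolve small changes at such levels was not tested.

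Oxidative phosphorylation takes place in the inner mitochondrial membrane. Complex I (NADH dehydrogenase) and complex II (succinate dehydrogenase) pass electrons to coenzyme Q, complex III hands them to cytochrome c, and complex IV (cytochrome c oxidase) hands them to oxygen. Complexes I, III and IV pump protons, and ATP synthase uses the gradient to make ATP. Hepatocytes are rich in mitochondria and spend ATP on the synthesis of glucose, urea and plasma proteins.

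Oxidative phosphorylation transcripts were slightly lower in the knockout livers in nearly every complex. The difference was below 0 in 78 of 90 genes (86.7%, against 47.5% of all genes). Its median was -0.18, where that of all genes was 0.01, and it ranged from -0.59 (Ndufaf4) to 0.28 (Cox8b). Every knockout array lay below every wild-type array in 41 genes (45.6%), against 6.62% of all genes. The reverse held in 1 gene, Ndufa7, against 9.15% of all genes.

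Few single genes passed the test. With limma fitted over all genes and Benjamini-Hochberg adjusted p under 0.05 as the threshold for a call, 3 genes fell (Ndufv1, Ndufa9 and Ndufaf1) and 0 rose, while 0.951% of all genes were called lower and 2.58% higher. At an unadjusted p under 0.05, 30 members were lower and 0 higher, against 6.23% and 10.2% of all genes. The number called turned on single animals: it was 8 without KO-03, 1 (Ndufaf4) without WT-27, and 0 without any 1 of the other 5 animals. Over 17 alternative settings, Ndufv1 was called in 9, Ndufa9 in 7 and Ndufaf1 in 5. Centring each array on its median moved the median of all genes to -0.10 and that of the members to -0.29, with 10 members called lower.

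**Figure D1:**
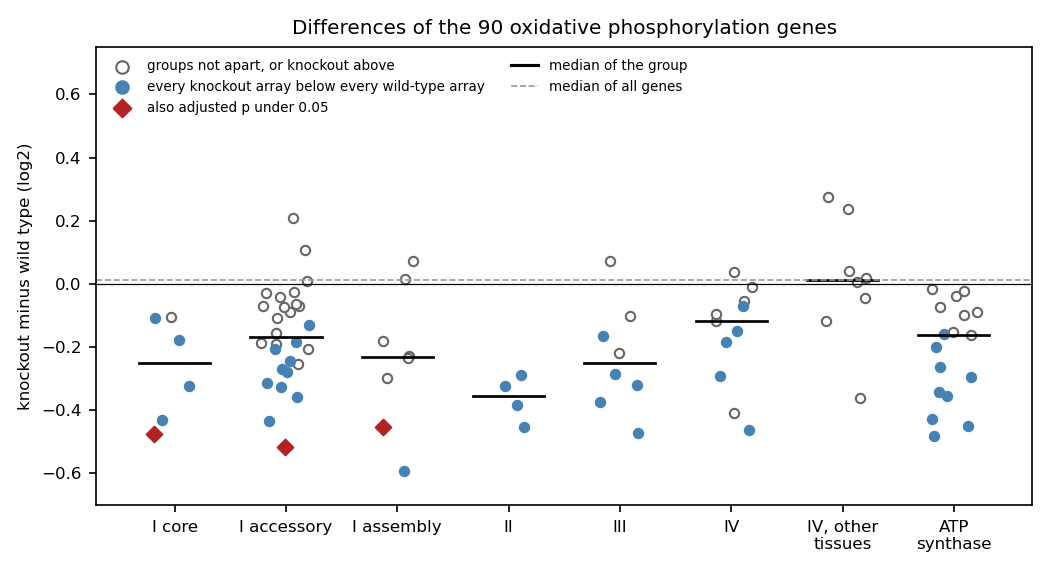
Difference of each of the 90 genes (vertical axis, knockout minus wild type, log2) by group (horizontal axis). Points are genes, diamonds are the 3 called genes, black bars are group medians and the dashed line is the median of all genes. Medians lie between -0.35 and -0.12, except 0.01 for complex IV isoforms of other tissues.

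The members are mostly bright probe sets, so they were also read beside other bright genes. Among the 1213 genes with a mean of at least 10, the median difference was -0.03, and knockout lay wholly below wild type in 18.6%. Of the 69 members at that level, 38 did so (55.1%), with a median difference of -0.18. Calls were no more frequent among these members: 2 of the 69 were called lower, and 33 of the 1213 genes, which are close shares. Leaving out the assembly factors and the isoforms of other tissues kept the median at -0.18 over 74 subunits. Within a genotype the median SD of the members was 0.09 in wild type and 0.11 in knockout.

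The shift was present in each knockout animal. Relative to each gene's wild-type mean, the mean over the 90 genes was 0.04 in WT-27, -0.03 in WT-103 and -0.01 in WT-104. It was -0.14 in KO-90, -0.19 in KO-03, -0.20 in KO-94 and -0.22 in KO-91. All 4 knockouts lay below all 3 wild types, with KO-90 the nearest to them. Of the 90 genes, 67 were below the wild-type mean in KO-90, 71 in KO-94, 77 in KO-03 and 81 in KO-91. Over all genes the same mean was -0.03 to 0.04 in wild type and -0.02 to 0.09 in knockout, and these ranges overlapped.

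**Figure D2:**
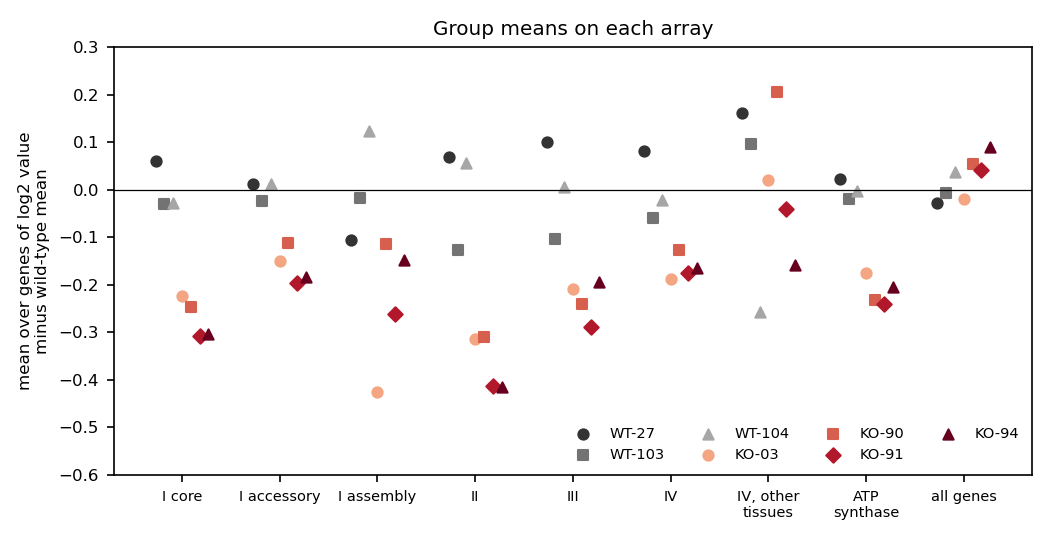
Mean over the genes of each group, relative to each gene's wild-type mean (vertical axis, log2), on each of the 7 arrays (symbols). Knockout symbols lie below wild-type symbols in every group except the complex IV isoforms of other tissues and the set of all genes.

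Core subunits of complex I include those that carry the flavin and the iron-sulfur clusters through which electrons leave NADH. All 6 differences were below 0, with a median of -0.25; the genotypes did not overlap in 5, and 1 was called. Ndufv1, which binds NADH and the flavin, measured 11.35, 11.27 and 11.23 in wild type and 10.84, 10.74, 10.85 and 10.81 in knockout. The genotypes formed 2 narrow, separate bands. Ndufv1 fell by 0.48 ± 0.10 (SE), to 71.9% of wild type (limma adjusted p = 0.0350), in a probe set of a class that may cross-hybridize. The other 2 probe sets of Ndufv1 differed by -0.37 and -0.37, with the genotypes apart in both. Tested over all probe sets, neither of these was called (limma adjusted p = 0.123 and 0.157).

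Ndufs1, the largest core subunit, measured 10.14, 10.05 and 10.19 in wild type and 9.66, 9.67, 9.68 and 9.77 in knockout. Its genotypes were also apart, but the difference of -0.43 ± 0.10 (SE) missed the threshold (limma adjusted p = 0.0515). The core subunits Ndufs3 and Ndufs7 were at -0.32 ± 0.12 (SE) and -0.18 ± 0.10 (SE). Both had every knockout array below every wild-type array, and neither was called.

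Accessory subunits surround the core and are needed for its assembly and stability. Of 28, 25 were below 0, knockout lay wholly below wild type in 11, 1 was called, and the median was -0.17. Ndufa9, at the junction of the matrix and membrane arms, measured 11.06, 10.90 and 11.01 in wild type and 10.61, 10.29, 10.43 and 10.57 in knockout. Every knockout array was lower, KO-90 the most. Ndufa9 fell by 0.52 ± 0.12 (SE), to 69.9% of wild type (limma adjusted p = 0.0490), read by a single probe set.

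Next by p came 3 subunits of the membrane arm, none of them called. Ndufb10 was at -0.43 ± 0.11 (SE), Ndufb8 at -0.36 ± 0.10 (SE) and Ndufb3 at -0.31 ± 0.10 (SE), each with the genotypes apart. Ndufa7 ran the other way, at 0.21 ± 0.11 (SE) with every knockout array above every wild-type array. Its other 4 probe sets differed by 0.15, 0.09, -0.06 and -0.21, so its probe sets disagree in sign.

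Assembly factors hold partly built pieces of complex I together and are absent from the finished enzyme. Of 8, 6 were below 0, the genotypes were apart in 2, and the median was -0.23. Ndufaf1, needed for the membrane arm, measured 8.70, 8.70 and 8.84 in wild type and 8.22, 8.24, 8.32 and 8.38 in knockout. The genotypes were apart, and Ndufaf1 fell by 0.45 ± 0.10 (SE), to 73.0% of wild type (limma adjusted p = 0.0494).

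Ndufaf4, another early assembly factor, had the lowest difference of the 90 genes. It measured 8.69, 9.19 and 8.99 in wild type and 8.29, 8.43, 8.50 and 8.25 in knockout. Wild-type animals spread more than knockouts here, and the difference of -0.59 ± 0.14 (SE) was not called (limma adjusted p = 0.0566). Its second probe set differed by -0.83. Ndufaf7 and Ndufaf6 were at -0.30 ± 0.15 (SE) and -0.23 ± 0.13 (SE), with overlapping genotypes.

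**Figure D3:**
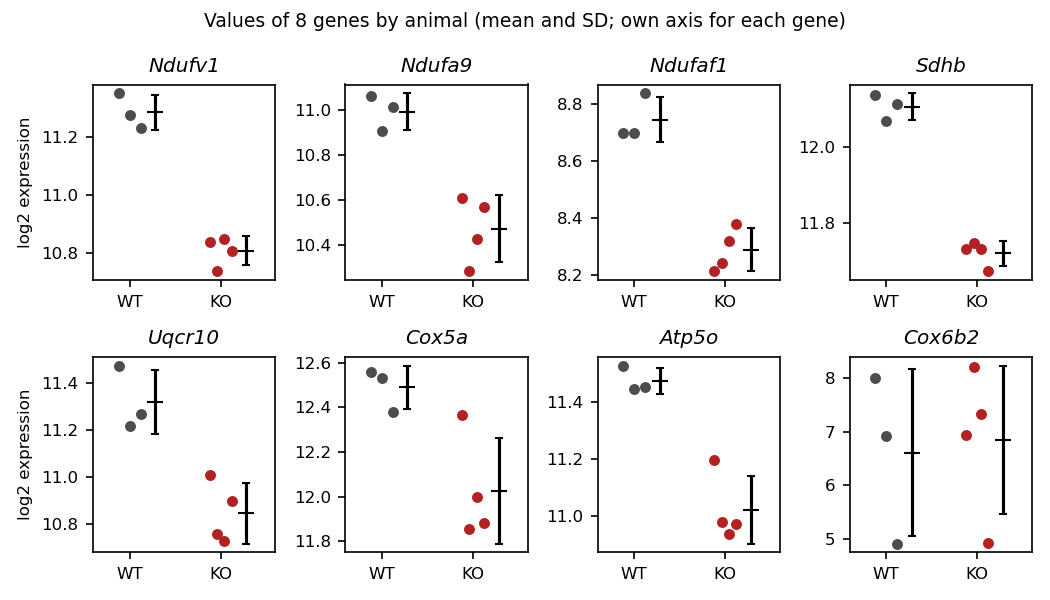
Log2 level (vertical axis, with its own range for each gene) of 8 genes in wild-type (WT) and knockout (KO) animals. Points are animals and bars give the mean and SD. Knockout points lie below wild-type points in 7 genes, and Cox6b2 varies widely within both genotypes.

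Complex II, shared with the citric acid cycle, had the lowest median of the groups, -0.35. In all 4 of its genes the genotypes were apart, and 0 were called. Sdhb, the iron-sulfur subunit, measured 12.14, 12.07 and 12.11 in wild type and 11.73, 11.75, 11.73 and 11.67 in knockout. Both genotypes were tight, and the difference was -0.38 ± 0.10 (SE), 76.6% of wild type (limma adjusted p = 0.0678). The membrane anchors Sdhc and Sdhd were at -0.45 ± 0.14 (SE) and -0.32 ± 0.11 (SE), and Sdha, the flavin subunit that oxidises succinate, at -0.29 ± 0.11 (SE).

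Complex III had 7 of 8 genes below 0 and a median of -0.25, with the genotypes apart in 5 and 0 called. Uqcr10, a small subunit, measured 11.47, 11.22 and 11.27 in wild type and 11.01, 10.76, 10.73 and 10.90 in knockout. Knockout lay wholly below wild type, with a difference of -0.47 ± 0.12 (SE) (limma adjusted p = 0.0724). The other probe sets of Uqcr10 differed by -0.81 and -0.75, but with overlapping genotypes. There KO-94 stood far below the other knockouts, at 6.70 against 9.10 to 9.41 and at 5.22 against 8.90 to 9.02. The core protein Uqcrc1 was at -0.37 ± 0.11 (SE), the Rieske iron-sulfur protein Uqcrfs1 at -0.32 ± 0.10 (SE) and the hinge protein Uqcrh at -0.28 ± 0.11 (SE). Uqcr11 was the gene above 0, at 0.07 ± 0.11 (SE).

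Complex IV had 10 of 11 genes below 0, the genotypes apart in 5 and 0 called. Its median was -0.12, and differences between complexes were not tested. Cox5a, a subunit on the matrix side, measured 12.56, 12.53 and 12.38 in wild type and 12.37, 11.86, 11.999 and 11.88 in knockout. KO-03 lay just under WT-104 and the other 3 knockouts well below it, for a difference of -0.46 ± 0.14 (SE) (limma adjusted p = 0.139). Cox6c was at -0.29 ± 0.10 (SE) and Cox6b1 at -0.18 ± 0.10 (SE), both with the genotypes apart. Cox7c was at -0.41 ± 0.20 (SE), but on 6 of 7 arrays it did not exceed the floor, the brightest of 27 controls for bacterial genes (4.71 to 5.23).

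Several complex IV subunits come as isoforms, one common and another of heart, muscle, lung or testis. On the log2 scale the common forms Cox4i1, Cox6a1, Cox7a2 and Cox8a differed by -0.07, -0.09, 0.04 and -0.06, and Cox7a2l, which helps join complexes into supercomplexes, by -0.01. The other probe set of Cox6a1 was further down, at -0.33 with every knockout array below every wild-type array, and was not called. Median centring turned Cox7a2 to -0.075. Cox4i1 measured 12.52, 12.47 and 12.54 in wild type and 12.40, 12.47, 12.42 and 12.46 in knockout. The lowest wild-type and highest knockout arrays of Cox4i1 are the same at this precision. Ndufa4, now counted with complex IV, was at -0.15 ± 0.11 (SE), and its paralog Ndufa4l2 at -0.04 ± 0.11 (SE).

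Among the 8 isoforms of other tissues, 3 differences were below 0 and 5 above, the genotypes were apart in 0, and the median was 0.01. The heart and muscle forms Cox7a1 and Cox8b and the testis form Cox7b2 did not exceed the floor on any of the 7 arrays, nor did the lung form Cox4i2 on 6. The muscle form Cox6a2 differed by 0.02 ± 0.11 (SE) and the testis form Cox8c by 0.04 ± 0.13 (SE), and median centring turned both below 0, to -0.095 and -0.072. Of 6 striated muscle markers 0 were called, Acta1, Mylpf and Tnnt3 did not exceed the floor, and their summed level was 153 to 161 in wild type and 154 to 173 in knockout.

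Cox6b2, the testis form of a subunit at the dimer contact, varied between animals of both genotypes. It measured 8.001, 6.92 and 4.91 in wild type and 6.93, 8.21, 7.33 and 4.92 in knockout. WT-104 and KO-94 did not exceed the floor, and the other 5 animals did. The SD over the 7 arrays was 1.34, the 73rd largest of all genes, against a median of 0.16 for the members. The difference between genotypes was 0.24 ± 0.84 (SE), and was -0.61 without WT-104 and -0.22 without KO-90.

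ATP synthase had all 17 genes below 0, the genotypes apart in 9, 0 called and a median of -0.16. Atp5o, of the stalk that holds the catalytic head, measured 11.53, 11.44 and 11.45 in wild type and 11.20, 10.98, 10.94 and 10.97 in knockout. KO-03 was the highest knockout and still lay below every wild type. The difference was -0.45 ± 0.11 (SE), 73.2% of wild type (limma adjusted p = 0.0600).

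Other parts of the enzyme had values of the same sign. The small membrane subunit Atp5k was at -0.43 ± 0.11 (SE), the stalk subunit Atp5pb at -0.48 ± 0.14 (SE) and the central shaft Atp5c1 at -0.36 ± 0.10 (SE). The head subunits Atp5a1 and Atp5b were at -0.34 and -0.29. Of the genes that encode the same mature c-ring protein, Atp5g1 was at -0.10, Atp5g2 at -0.04 and Atp5g3 at -0.20, with the genotypes apart in Atp5g3 only. A further quantile normalization turned Atp5g2 to 0.0034.

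**Figure D4:**
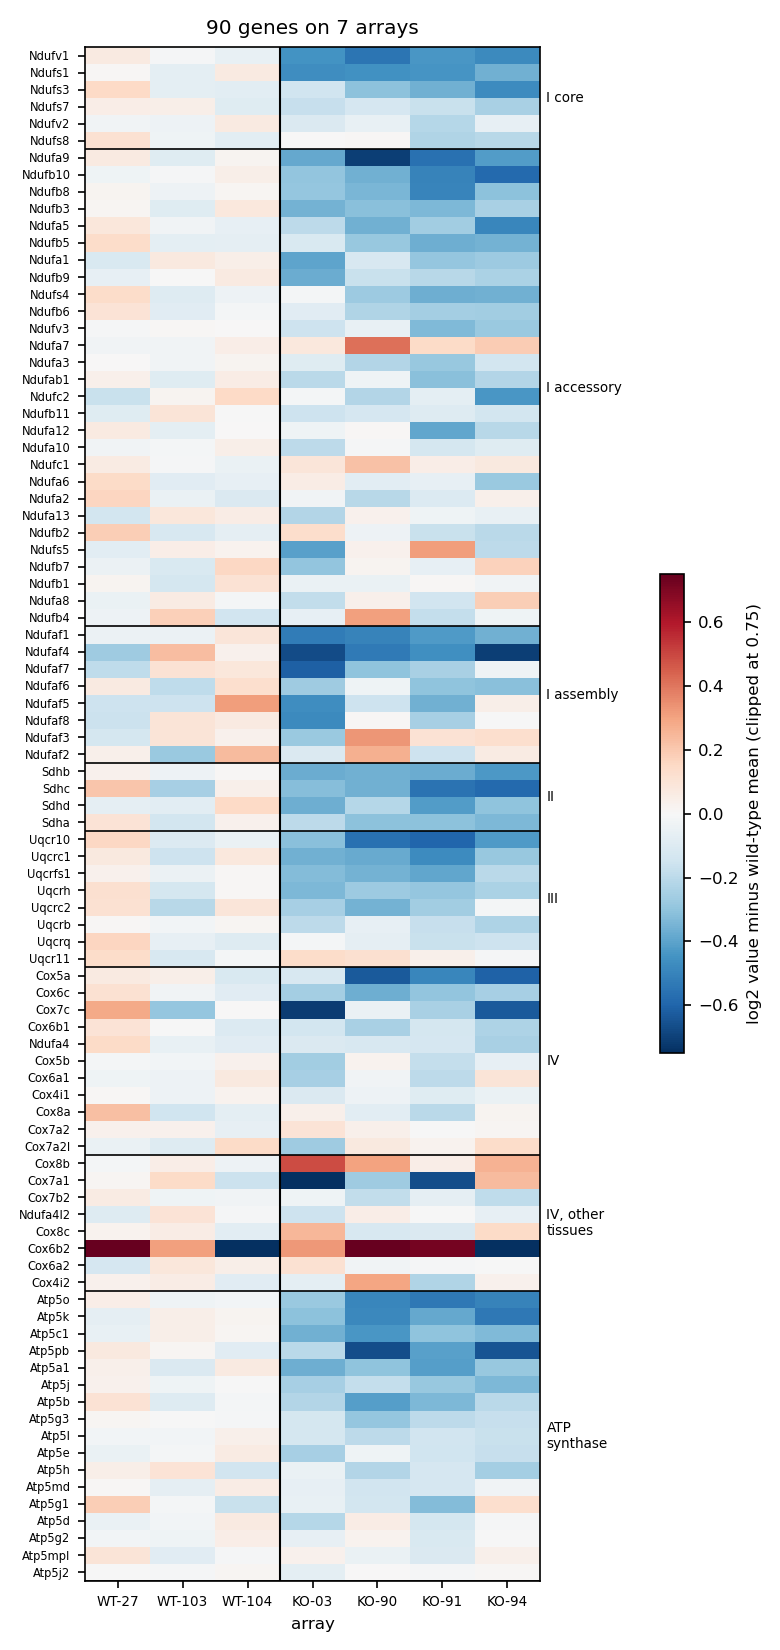
Each row is 1 of the 90 genes and each column 1 array, coloured by the log2 level minus the gene's wild-type mean, with colours clipped at 0.75. Knockout columns are mostly blue (lower) through all groups but the complex IV isoforms of other tissues.

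Other probe sets of the same genes mostly had the same sign. Of 179 probe sets, 19 did not exceed the floor on any array. Of the 160 others, 137 were lower in knockout (85.6%), against 48.6% of all 20577 probe sets above the floor. Knockout lay wholly below wild type in 68 (42.5%), against 7.53% of all such probe sets, and wholly above in 2, against 11.3%. Of 74 probe sets beside those used, 10 had the opposite sign, in Atp5h, Atp5j2, Ndufa12, Ndufa7, Ndufb8, Ndufc2 and Ndufs4. Tested over all probe sets, 1, of Ndufv1, was lower at a limma adjusted p under 0.05, against 0.515% of all probe sets. Probe sets shared with another gene were left out, among them 1 of Ndufa11 and Ndufa11b at -0.19 and 1 of Ndufs6 and Ndufs6b at -0.05. Ndufb4 did not exceed the floor in its own probe set, and 2 probe sets shared with its copies were at -0.02 and -0.11.

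Promoters were read because the members shifted together and many respiratory genes are known targets of NRF1, of the ETS factor GABPA and of YY1. RefSeq windows of GRCm38.p6, from 250 bases before to 50 after a gene's start, were matched for 74 of 90 members and 14368 measured genes, and both strands were searched. The NRF1 letters GCGCANGCG were in 20 of 74 member windows (27.03%), in 11.5% of those of measured genes and in 6.25% of all 32851 windows. The ETS letters CCGGAAG were in 19 of 74 member windows (25.68%), in 15.0% of those of measured genes and in 8.86% of all 32851 windows. The YY1 letters AAGATGGC were in 10 of 74 member windows (13.51%), in 4.08% of those of measured genes and in 2.75% of all 32851 windows, and can overlap the ETS letters over AAG.

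Members with and without these letters had close median differences. The median was -0.22 with the NRF1 letters and -0.18 without, -0.18 and -0.18 for ETS, and -0.22 and -0.16 for YY1. A match describes letters in the window and is not a measured binding site. Of the factors, none was called: Nrf1 was at -0.07 ± 0.13 (SE), Gabpa at -0.47 ± 0.17 (SE) and Yy1 at 0.02 ± 0.15 (SE).

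Stretches upstream of 3 genes named above show these letters, in capitals, 5′ to 3′ on the gene's strand. Ndufaf4 (chr4:24897943-24898022, plus strand, bases -140 to -61 from the start) and Atp5k (chr5:108434420-108434499, minus strand, bases -100 to -21 from the start) hold the NRF1 letters on both strands, the second match 1 base after the first. Ndufaf1 (chr2:119662835-119662914, minus strand, bases -80 to -1 from the start) holds the ETS letters.
Ndufaf4: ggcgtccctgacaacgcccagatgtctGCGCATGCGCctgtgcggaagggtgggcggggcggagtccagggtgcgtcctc
Atp5k: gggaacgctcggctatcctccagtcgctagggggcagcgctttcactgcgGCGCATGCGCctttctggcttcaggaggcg
Ndufaf1: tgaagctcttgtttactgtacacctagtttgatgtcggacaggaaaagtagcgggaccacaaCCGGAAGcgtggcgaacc

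Of 19 regulators of mitochondrial gene expression, 14 were below 0 and 0 were called, with a median of -0.25. The coactivator Ppargc1b measured 7.98, 7.20 and 7.45 in wild type and 7.01, 6.41, 6.49 and 5.80 in knockout. Its genotypes were apart and each varied widely, for a difference of -1.11 ± 0.28 (SE) (limma adjusted p = 0.0684). Mterf3, which acts on mitochondrial transcription, was at -0.41 ± 0.14 (SE).

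Genes that serve the respiratory chain from outside the symbol rule held a few calls, all lower. Over all genes 0.951% were called lower and 2.58% higher. Of 36 other assembly factors (median -0.11), 3 were called: Cox11, which brings copper to complex IV, fell by 0.84 ± 0.13 (SE), and the complex I factors Foxred1 and Ecsit fell by 0.68 ± 0.15 (SE) and 0.56 ± 0.12 (SE). Of 16 electron carrier and coenzyme Q genes (median -0.21), Etfa, which takes electrons from fatty acid oxidation, fell by 0.73 ± 0.12 (SE). Coq5 of coenzyme Q synthesis was at -0.49 ± 0.17 (SE), and cytochrome c, Cycs, at -0.45 ± 0.19 (SE) with KO-03 inside the wild-type range. In the same list Coq8b and Coq10b ran the other way, at 0.39 ± 0.14 (SE) and 0.59 ± 0.23 (SE). Neither was called, and their genotypes overlapped. At an unadjusted p under 0.05, 4 genes of this list were lower and 2 higher. Of 76 mitochondrial ribosome genes (median -0.10), 1 was called: Mrps10 fell by 0.48 ± 0.11 (SE). Mrpl23 was at 0.48 ± 0.12 (SE). Of the 76, 57 were below 0. Knockout lay wholly below wild type in 15 (19.7%, against 6.62% of all genes) and wholly above in 7 (9.21%, against 9.15%). None of 13 genes of mitochondrial DNA was read under its symbol here.

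Genes of the citric acid cycle included some that rose, and 1 carrier of ATP export rose. Of 18 citric acid cycle and pyruvate entry genes, 2 rose and 2 fell (2.58% and 0.951% of all genes), with a median of -0.06. Idh3g, a subunit of isocitrate dehydrogenase, rose from 9.86 ± 0.05 (SD, n = 3) to 11.01 ± 0.08 (SD, n = 4), 2.22-fold (limma adjusted p = 0.00105). The transcript of citrate synthase, Cs, rose from 10.01 ± 0.22 (SD, n = 3) to 10.99 ± 0.07 (SD, n = 4), 1.97-fold (limma adjusted p = 0.00500). Pdhb, of pyruvate dehydrogenase, fell by 0.71 ± 0.10 (SE), and Idh3b, another subunit of isocitrate dehydrogenase, fell by 0.46 ± 0.10 (SE).

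Of 6 carriers (median 0.03), Slc25a4, an ADP/ATP translocase, rose by 1.15 ± 0.17 (SE), and the phosphate carrier Slc25a3 was at -0.23 ± 0.12 (SE). Slc25a5, another ADP/ATP translocase, was at -0.03 ± 0.10 (SE). Its wild-type mean was 12.83, against 6.46 for Slc25a4. Of 19 import, membrane and chaperone genes (median -0.13), Immt, which shapes the cristae, rose by 0.53 ± 0.10 (SE), and Timm44, of the import motor, fell by 0.53 ± 0.10 (SE).

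**Figure D5:**
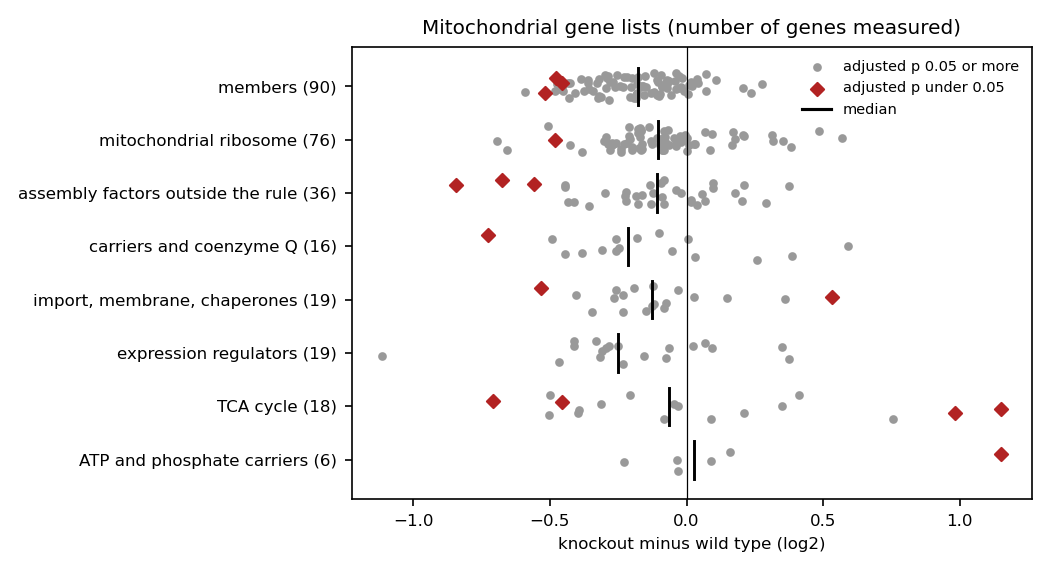
Difference of each gene (horizontal axis, knockout minus wild type, log2) in the 90 members and in other mitochondrial lists. Diamonds are called genes and bars are medians. Called genes above 0 lie in the citric acid cycle, carrier and import lists, and the members lie between -0.59 and 0.28.

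Markers of other liver cells moved with the genotype, and their part in the lower member values was not tested. Of 7 stellate cell markers 4 rose (Col1a1, Col3a1, Dcn and Pdgfrb), and their summed level was 3035 to 3411 in wild type and 4984 to 7704 in knockout. Of 4 cholangiocyte markers Epcam and Krt19 rose (105 to 119 against 170 to 348), with Krt7 never above the floor, and of 3 neutrophil markers S100a8 and S100a9 rose (86.1 to 149 against 459 to 2184). Markers of macrophages (3094 to 4142 against 3557 to 4866), endothelium (1711 to 1999 against 1550 to 2032), red blood cells (704 to 810 against 688 to 858) and adipocytes (41.5 to 50.9 against 39.9 to 63.5, all 4 never above the floor) had 0 calls and overlapping sums. Still, all 7 macrophage markers differed above 0. In Marco (0.89) and Cd68 (0.68) every knockout array lay above every wild-type array. The 5 lymphocyte markers had 0 calls but sums that did not overlap (271 to 354 against 396 to 478), with Cd79a and Ms4a1 never above the floor. The brightest of them, Ptprc, differed by 0.56 and was the only one with the genotypes apart. Cd3d and Cd3e were at 0.36 and 0.01, and Cd3d did not exceed the floor on 5 of 7 arrays. In bulk liver, fewer cells of a type and less RNA per cell cannot be told apart.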

How the data were processed

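Total RNA from frozen liver of 3 wild-type and 4 miR-122 knockout mice was read on 1 Affymetrix array per animal. The authors deposited log2 expression values made by robust multi-array analysis in Partek's software, as the submitters' processing notes and the text on the series' design say, with software versions not given in the sources used here. RMA includes quantile normalization, which can hide a shift shared by most genes. The table holds 45101 probe sets and no counts, so depth does not apply and the number of arrays limits precision.

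Probe sets with 1 gene symbol in the platform annotation were kept, control probe sets left out, and each gene was read by its brightest probe set on average over the arrays (18193 genes). Genotypes were compared with limma 3.58.1 (lmFit and eBayes, two-sided, no covariate) in R 4.3.3, with p-values adjusted by Benjamini-Hochberg across all genes and called under 0.05. The script was tested on simulated data. P-values test the genotype difference against the spread between these animals. For each gene eBayes draws that spread towards the spread of all genes, with 3.994 prior beside 5 residual degrees of freedom. Each printed SE comes from the same moderated spread. The floor of an array is the brightest of its 27 control probe sets for Bacillus subtilis genes, and whether such RNA was spiked in is not stated in the labels. Symbols and promoters were matched with RefSeq tables of GRCm38.p6.

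Members and lists were chosen with earlier results of these data known. Named genes are every called member, the 4 smallest p in each group, every member of the isoform families, and in each other list every called gene and the 2 smallest p. Tat, Ndufa7, Uqcr11, Atp5a1, Atp5b, Cycs, Nrf1, Gabpa, Yy1 and the genes of shared or disagreeing probe sets were named outside that rule, after their values were seen. Coq8b, Coq10b, Slc25a5, Marco, Cd68, Ptprc, Cd3d and Cd3e were also named after their values were seen. Alternatives were other priors, array weights, other normalization, a filter on dim genes (log2 6), other choices of probe set, other thresholds and leaving out each animal. The hepatocyte sum without Tat was added after seeing the data.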

Additional observations from a re-analysis of the deposited data

Results flagged for a closer look

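In 55 sets of 4 knockout values, 3 held a value far from the other 3 by Dixon's test, and chance gives about 1 in 20. Ndufaf6 was high in KO-90, at 8.46. Atp5o was high in KO-03, at 11.20, where it still lay below every wild-type array. Ndufa4 was low in KO-94, at 11.88.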

How the results depend on the processing

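The median difference of the members stayed below 0 in every alternative tried, and 0 members were called higher in any. It was -0.14 after a further quantile normalization (all genes -0.02), -0.29 after median centring, and -0.18 to -0.16 with animals left out. Between 39 and 49 members had every knockout array below every wild-type array, but the share of all genes that did so moved too, from 6.48% to 15.3%; the 49 members, without WT-103, go with 9.21%. The number called lower was less stable than these. From 3 it went to 5 with a trended prior, 2 with a robust prior and 13 with array weights. It was 10 with median centring, 8 with the dim filter and 6 with the mean of probe sets. Without probe sets that may cross-hybridize it was 0, and with the probe set chosen by wild-type mean it was 1. At a threshold of 0.1 it was 11, and at 0.01 it was 0. Without 1 animal it was 0 to 8, and 1 (Cox5a) without both WT-104 and KO-03, a choice made after seeing the data. In all, 15 members were called in some alternative. Genes called among all genes went from 643 to 1253 with array weights and 169 to 1144 with animals left out. The causes were not tested.

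Some uncalled differences near 0 changed sign. With array weights these were Cox4i2 at -0.10, Cox6a2 at -0.0022, Cox7a2l at 0.024 and Cox8c at -0.042; after quantile normalization Atp5g2 at 0.0034, Cox4i2 at -0.035, Cox6a2 at -0.093 and Cox8c at -0.023; after median centring Cox4i2 at -0.11, Cox6a2 at -0.095, Cox7a2 at -0.075 and Cox8c at -0.072. With animals left out, the ranges were Cox4i2 -0.089 to 0.085, Cox6a2 -0.045 to 0.062, Cox6b2 -0.64 to 0.93, Cox7a2 -0.013 to 0.054, Cox7a2l -0.056 to 0.15, Cox8a -0.13 to 0.057, Cox8c -0.067 to 0.095 and Ndufa4l2 -0.091 to 0.0075. No paired analysis was possible because the labels give no litter or other match between knockout and wild-type animals.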
